A study of Mus musculus with 6 samples.

Results

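Imprinted genes are genes of which mainly the copy inherited from 1 parent is read. The set described here was taken by gene symbol and holds 46 genes of 17 chromosomal domains, of which 44 are among the 16874 genes of the table and Usp29 and Zim1 are not analysed here. By textbook knowledge of the mouse, 23 are read from the paternal copy, 21 from the maternal copy, and 2 (Gnas and Blcap) from a copy that depends on the isoform. In several of them, such as Ube3a, Herc3, Trappc9 and Commd1, that holds in brain or placenta more than elsewhere. RNA was sequenced from fibroblasts of the colon, grown in culture, with 3 libraries labelled Prkcz-/- (lacking the atypical protein kinase C zeta) and 3 labelled WT, all from the strain C57BL/6 at an age of 12 weeks. All were untreated and taken 24 h after plating at about 80% confluency. Separate animals or cultures for the libraries of a group are not stated, and p-values therefore rest on a spread that may be technical only. Values are FPKM, that is fragments per kilobase of gene scaled to library depth, and they do not tell the parental copies apart.

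Imprinting is set by DNA methylation that differs between egg and sperm, is kept through the reprogramming of the early embryo, and then holds neighbouring genes in a domain in opposite states. The factor ZFP57 binds the methylated copy of such control regions and, with TRIM28, keeps the mark, while DNMT1 and UHRF1 copy it at each cell division. Paternally expressed genes of these domains, such as Igf2, Dlk1, Mest, Peg10 and Plagl1, are best known from growth of fetus and placenta, and maternally expressed ones, such as Cdkn1c, Igf2r, Grb10 and Phlda2, for holding it back. Most are high in the embryo and low after birth, and many stay readable in mesenchymal cells.

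The promoters of 6 members are shown because their values carry the main differences and 2 contrasts: Nnat against Blcap, whose transcription unit encloses it, Meg3 against Dlk1 of the same domain, and Mest and Plagl1. Each runs 5′ to 3′ from 250 bases before to 50 bases after a RefSeq transcription start on GRCm38.p6, and where a gene has several starts the promoter with the most CpG dinucleotides is given. Capitals mark the letters TGCCGC, the core that ZFP57 binds, on either strand (GCGGCA on the other).
Nnat, chr2:157559828-157560127, plus strand: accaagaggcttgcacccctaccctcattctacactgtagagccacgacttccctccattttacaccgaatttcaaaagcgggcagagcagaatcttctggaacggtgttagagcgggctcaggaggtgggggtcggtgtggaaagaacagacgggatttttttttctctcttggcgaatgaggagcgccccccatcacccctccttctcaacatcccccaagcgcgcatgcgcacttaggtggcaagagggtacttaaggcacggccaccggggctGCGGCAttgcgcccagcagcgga
Blcap, chr2:157566312-157566611, minus strand: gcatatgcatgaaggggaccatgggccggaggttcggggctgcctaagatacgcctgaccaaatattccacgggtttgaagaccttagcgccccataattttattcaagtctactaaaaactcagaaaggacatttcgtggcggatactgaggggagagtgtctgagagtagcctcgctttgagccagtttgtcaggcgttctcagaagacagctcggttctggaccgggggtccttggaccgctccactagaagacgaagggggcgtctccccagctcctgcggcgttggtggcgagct
Mest, chr6:30737800-30738099, plus strand: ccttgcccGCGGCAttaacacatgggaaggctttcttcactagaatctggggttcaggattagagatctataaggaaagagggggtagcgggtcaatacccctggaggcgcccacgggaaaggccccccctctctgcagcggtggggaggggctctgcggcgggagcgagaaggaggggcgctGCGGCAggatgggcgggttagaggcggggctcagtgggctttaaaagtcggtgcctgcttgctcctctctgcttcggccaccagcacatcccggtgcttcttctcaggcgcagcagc
Plagl1, chr10:13090582-13090881, plus strand: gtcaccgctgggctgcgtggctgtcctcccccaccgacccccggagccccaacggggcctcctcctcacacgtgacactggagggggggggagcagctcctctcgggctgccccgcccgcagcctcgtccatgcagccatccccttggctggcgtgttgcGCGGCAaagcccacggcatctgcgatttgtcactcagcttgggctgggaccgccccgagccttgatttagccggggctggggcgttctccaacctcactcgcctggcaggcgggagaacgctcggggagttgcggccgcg
Meg3, chr12:109540746-109541045, plus strand: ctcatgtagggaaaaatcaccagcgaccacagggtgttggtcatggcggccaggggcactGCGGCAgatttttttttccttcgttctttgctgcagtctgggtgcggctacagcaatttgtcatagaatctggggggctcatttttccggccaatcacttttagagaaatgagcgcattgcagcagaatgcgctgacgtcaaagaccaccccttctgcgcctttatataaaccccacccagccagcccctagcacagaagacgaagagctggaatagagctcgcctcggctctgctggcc
Dlk1, chr12:109452573-109452872, plus strand: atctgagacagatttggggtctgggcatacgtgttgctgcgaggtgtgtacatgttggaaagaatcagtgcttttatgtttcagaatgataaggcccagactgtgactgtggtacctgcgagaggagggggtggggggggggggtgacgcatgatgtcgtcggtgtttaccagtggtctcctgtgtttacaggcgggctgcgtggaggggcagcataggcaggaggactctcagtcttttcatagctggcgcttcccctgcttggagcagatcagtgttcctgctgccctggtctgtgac
The 300 bases hold 17 CpG in Nnat, 17 in Blcap, 17 in Mest, 26 in Plagl1, 13 in Meg3 and 9 in Dlk1. The hexamer stood 2 times in the Mest promoter, 1 time each in those of Nnat, Plagl1 and Meg3, and not in those of Blcap and Dlk1. Of the 60 promoters listed for 38 members, 14 (23.3%) held it, and of all 32851 promoters of that length 11.6% did; those of the members had a median of 12 CpG and all promoters a median of 7. A match of letters in a promoter is a description and not a binding site.

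Some members also enclose microRNAs on their own strand, by RefSeq positions. The shown ones lie in hosts whose RNA differed between the groups, with the seed (bases 2 to 8) in capitals.
mmu-miR-335-5p, in Mest: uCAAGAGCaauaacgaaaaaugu
mmu-miR-370-3p, in Rian: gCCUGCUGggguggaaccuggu
mmu-miR-410-3p, in Mirg: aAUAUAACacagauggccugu
mmu-miR-675-5p, in H19: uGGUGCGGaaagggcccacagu
These 4 have different seeds. Mirg encloses 14 hairpins and Rian 3. Mature microRNAs are not measured by polyadenylated libraries, so only their hosts' RNA is described.

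The depth was about 14200000 to 16100000 reads in the libraries labelled Prkcz-/- and 14100000 to 15600000 in WT, an approximation from the value of 1 read in low genes and annotated exon lengths. Prkcz itself went against the labels: it measured 1.35, 1.32 and 1.17 FPKM in the libraries labelled Prkcz-/-, against 0.0433, 0.144 and 0.202 FPKM in those labelled WT (log2 difference 1.51, SE 0.148). It reached a mean of 0.5 FPKM, the limit for testing, through the libraries labelled Prkcz-/- alone, so no p-value is given. Whether reads fell on the deleted part cannot be seen from a value per gene. Every direction here follows the labels, with the libraries labelled Prkcz-/- set against WT. Fibroblast markers summed over 10 genes to 8981 to 9287 against 6380 to 6651 FPKM, with 6 genes higher and 4 lower. That is 100% called, against 68.7% of all genes tested. The higher ones were Col1a1 (2972 against 1815 FPKM), Pdgfra (57.7 against 20.9 FPKM), Pdgfrb (99.6 against 35.0 FPKM), Thy1, Vim and S100a4. The lower ones were the collagens Col1a2 (826 against 1172 FPKM) and Col3a1 (441 against 729.6 FPKM) and the proteoglycans Dcn and Lum, the last at 0.0922 against 3.39 FPKM. Lists of epithelial, endothelial and immune markers summed to no more than 5.41 FPKM in any library, with Cdx2, Cldn5, Tie1 and Cd3e among the markers with no value. The immune sum was 4.26 to 5.41 against 2.50 to 3.26 FPKM, and that of 6 mesothelial markers 0.539 to 0.945 against 5.33 to 5.96 FPKM. Of the immune markers Cd74 (2.42 against 0.185 FPKM) and Csf1r (0.423 against 0.09998 FPKM) had higher means in the libraries labelled Prkcz-/-. Cd68 (1.73 against 2.13 FPKM) and Lyz2 (0.341 against 0.507 FPKM) had lower ones. The mesothelial sum was mostly Msln (0.131 against 5.44 FPKM), whereas Krt7, Upk1b and Wt1 had higher means in the libraries labelled Prkcz-/-, at or under 0.385 FPKM. Of the smooth muscle genes Acta2, also made by myofibroblasts, measured 1917 against 1179 FPKM and Actg2 52.9 against 461 FPKM, and the 8 muscle markers summed to 1941 to 2025 against 1551 to 1687 FPKM. Of 10 neural and glial markers, 3 reached a mean of 0.5 FPKM, and their sum was 56.6 to 58.9 against 23.5 to 27.4 FPKM, nearly all of it Tubb3 (35.4 against 17.6 FPKM) and Uchl1 (20.4 against 6.81 FPKM), while the glial factor Sox10 measured 0.0150 against 0.00749 FPKM. Of 8 trophoblast markers of the placenta, where much imprinting is known, 0 reached a mean of 0.5 FPKM. The part of these other cell types in the results was not tested. In bulk RNA, fewer cells of a type and less RNA per cell cannot be told apart.

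Most imprinted genes with measurable RNA differed between the 2 groups, and they did so in both directions. The test, limma on log2(FPKM + 0.5), took in the 12130 genes whose mean over all libraries reached 0.5 FPKM, and 33 of them were imprinted. Of these, 14 were higher, 17 lower and 2 (Airn and Copg2) not past the threshold of adjusted p under 0.05. That is 93.9% called, against 68.7% of all genes tested, and the median log2 change was -0.13 against -0.04. Groups of values did not overlap in 31 of 33 imprinted genes (93.9%), against 72.7% of all genes. A log2 change of at least 1 in either direction was called for 10 of 33 imprinted genes (30.3%), against 10.8% of all genes. The filter let 4 members in through their high group alone (Nnat and Ppp1r9a, high in the libraries labelled Prkcz-/-, and Ddc and Mkrn3, high in WT), which had to differ. Without such genes, 27 of 29 imprinted genes (93.1%) and 67.9% of all genes were called. The members were chosen with earlier results of these data known. Nothing is therefore read from these shares about imprinted genes as a class.

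Both directions were found among genes of either parental copy. Of 15 tested paternally expressed genes 7 were higher and 7 lower, with a median log2 change of -0.05. Without the genes let in through their high group alone, 6 of 12 were higher and 5 lower, with a median of 0.07. Among 16 tested maternally expressed genes 6 were higher and 9 lower, with a median of -0.20. Without such genes, 5 of 15 were higher and 9 lower, with a median of -0.22. Of all genes tested, 31.5% were higher and 37.2% lower. Of the 5 imprinted genes called with a log2 change of 1 or more, Nnat, Mest, Peg10 and Plagl1 are paternally expressed and Cdkn1c maternally. Of the 5 called at -1 or less, Meg3, Rian and Mirg are maternally expressed and Ndn and Snrpn paternally.

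**Figure D1:**
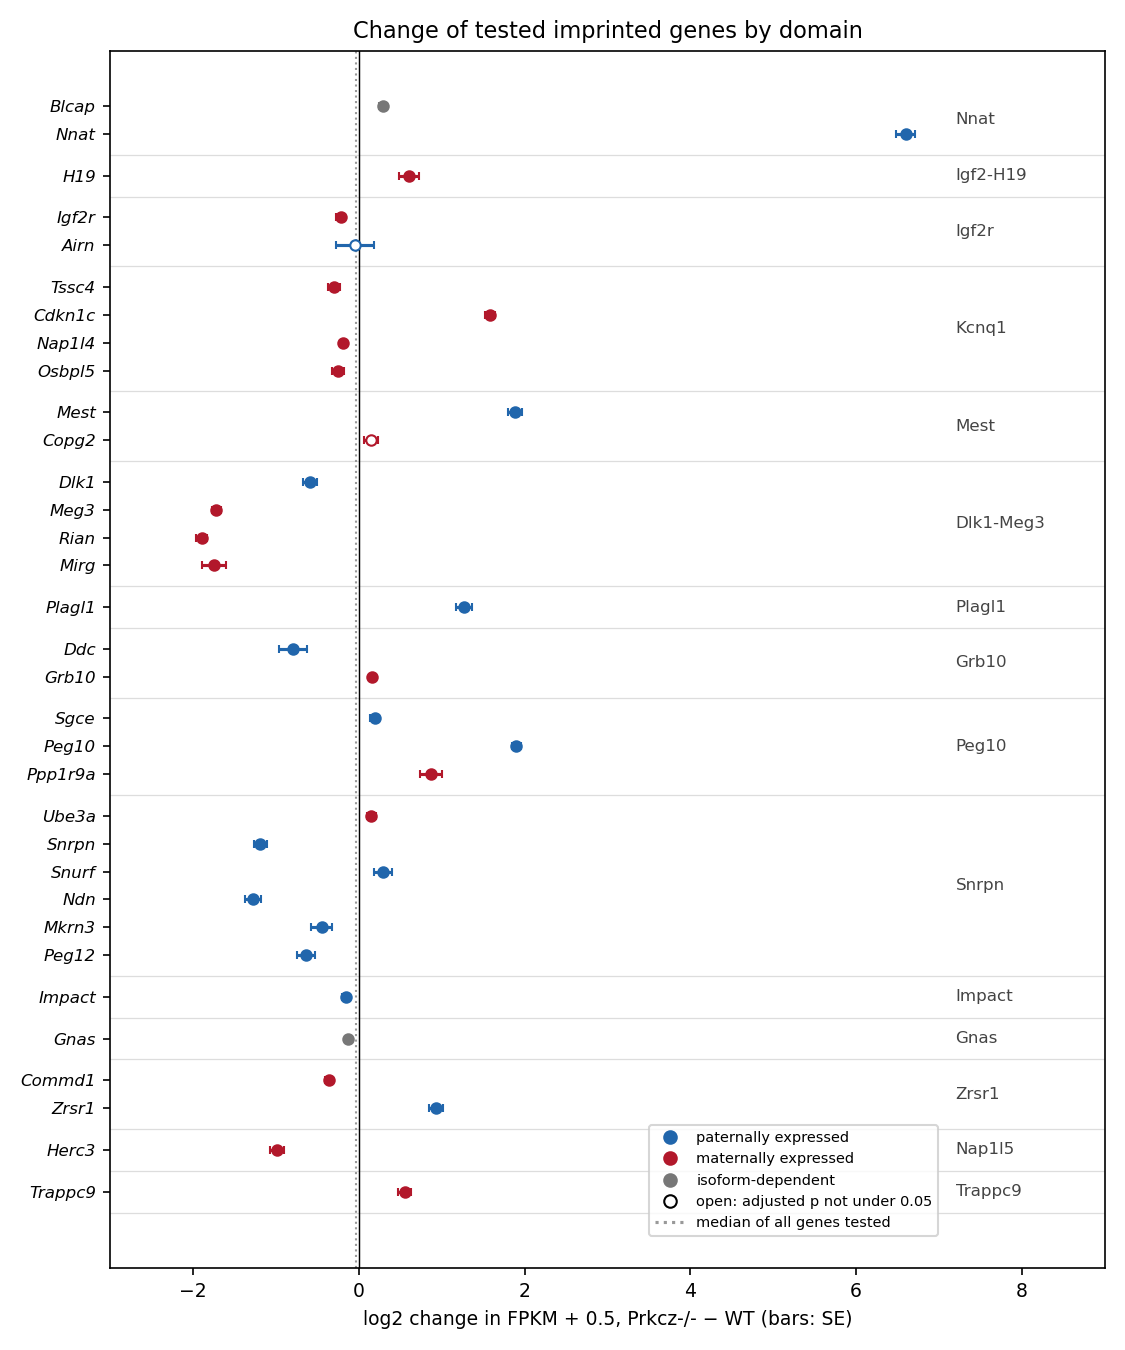
Log2 change (x axis, log2 of FPKM + 0.5, libraries labelled Prkcz-/- minus WT, bars are SE) of the 33 tested imprinted genes, one per line and grouped by domain; colour gives the expressed copy, open circles did not pass the threshold and the dotted line is the median of all genes tested (-0.04). Nnat stands apart at 6.60, and Meg3, Rian and Mirg lie between -1.90 and -1.72.

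**Figure D2:**
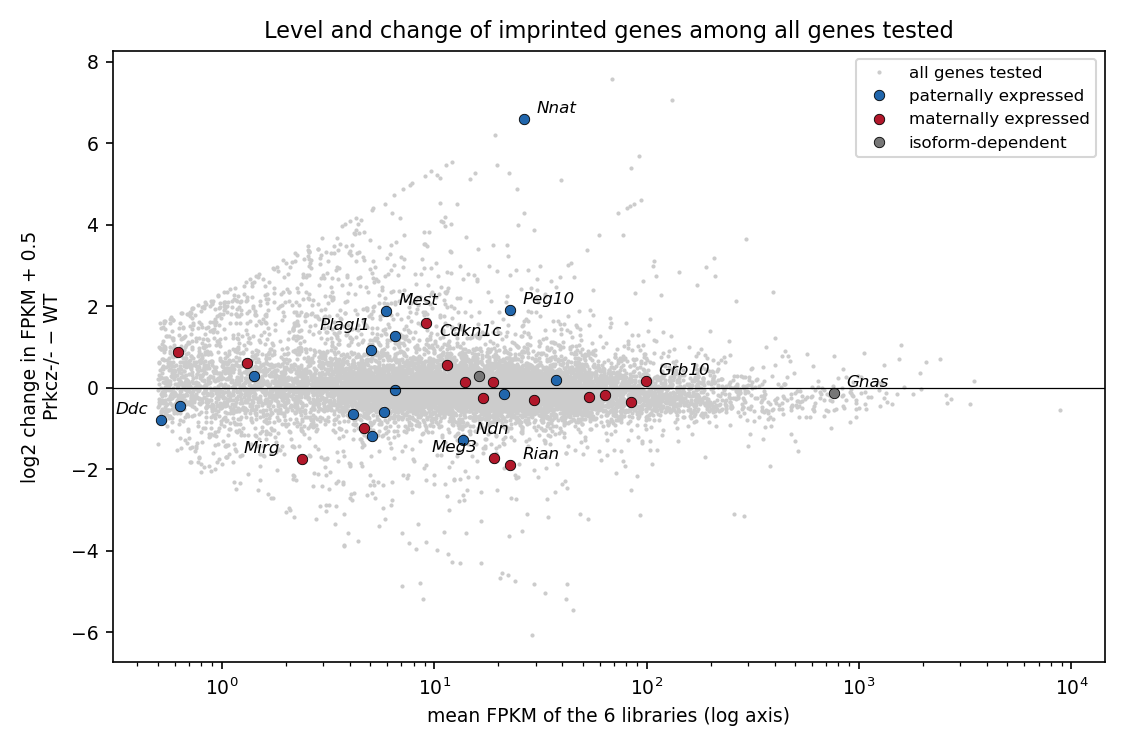
Mean FPKM of the 6 libraries (x, log axis) against log2 change (y, libraries labelled Prkcz-/- minus WT) for all 12130 genes tested (grey) and the imprinted genes (coloured by expressed copy). The imprinted genes reach from Ddc, at a mean of 0.518 FPKM, to Gnas, at 761 FPKM.

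Nnat was among the more abundant imprinted RNAs in the libraries labelled Prkcz-/- and was hardly detected in WT. It encodes neuronatin, a small membrane proteolipid known from developing brain and endocrine cells (chromosome 2, 157560078 to 157562522, plus strand, GRCm38). It measured 50.9, 55.0 and 53.0 FPKM in the libraries labelled Prkcz-/-, against 0.162 FPKM in WT library 1 and a listed 0 in the other WT libraries. The log2 change was 6.60 (SE 0.115), which depends on the added 0.5 FPKM and is no bound on the fold. Nnat passed the filter through the libraries labelled Prkcz-/- alone and had to differ. Blcap, a small membrane protein of wide expression, lies around Nnat on the opposite strand. It measured 18.0, 17.4 and 18.4 FPKM against 15.1, 14.0 and 14.7 FPKM in WT, without overlap between the groups (log2 change 0.29, SE 0.0477, limma adjusted p = 9.13e-04). The nearest genes outside differed by far less, with Src, a tyrosine kinase, at 31.3 against 27.1 FPKM and Ctnnbl1, a splicing protein, at 14.4 against 13.5 FPKM (limma adjusted p = 0.00553 and 0.276). Both promoters shown above hold 17 CpG, and the hexamer is in that of Nnat.

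The maternally expressed noncoding RNAs of the Dlk1-Meg3 domain fell together. Meg3 (chromosome 12, 109541001 to 109571726, plus strand), a long noncoding RNA, measured 8.72, 8.13 and 9.01 FPKM in the libraries labelled Prkcz-/-, against 28.8, 30.5 and 29.3 FPKM in WT. Its level was 3.43-fold higher in WT (log2 change -1.72, SE 0.0514, limma adjusted p = 6.91e-08). Rian, which hosts small nucleolar RNAs, measured 9.56, 8.93 and 9.29 FPKM against 33.0, 38.8 and 36.1 FPKM in WT (log2 change -1.90, SE 0.0630, limma adjusted p = 1.21e-07). Mirg, the host of a microRNA cluster, measured 0.795, 0.751 and 0.878 FPKM against 3.65, 5.01 and 3.24 FPKM in WT (log2 change -1.75, SE 0.148, limma adjusted p = 2.07e-05). In all 3 genes every library labelled Prkcz-/- lay below every WT library. The log2 changes lay within 0.18 of each other, but the added 0.5 FPKM shrinks that of Mirg most. From plain means the level in WT was 3.43-fold (Meg3), 3.885-fold (Rian) and 4.91-fold (Mirg) higher. These RNAs follow one another on the same strand and are held to be parts of one long transcript in the mouse.

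Of the paternally expressed genes of that domain Dlk1 was called lower and Rtl1 was too low to be tested. Dlk1, a membrane protein related to NOTCH ligands that restrains fat cell differentiation, measured 4.33, 5.18 and 4.15 FPKM against 7.24, 7.16 and 6.78 FPKM in WT (log2 change -0.59, SE 0.0856, limma adjusted p = 4.57e-04). Rtl1, a retrotransposon-derived gene, had a listed 0 throughout the libraries labelled Prkcz-/- and measured 0.0336, 0.0744 and 0.0896 FPKM in WT. Begain, the nearest gene before Dlk1 and imprinted in some species, measured 0.496, 0.635 and 0.542 FPKM against 1.48, 1.69 and 1.71 FPKM in WT (log2 change -1.01, SE 0.115, limma adjusted p = 1.13e-04). Beyond it Wdr25 measured 1.59 against 1.37 FPKM and Wars, a tRNA synthetase, 30.9 against 25.8 FPKM (limma adjusted p = 0.347 and 0.00184). Dio3, a thyroid hormone deiodinase at the far end that is also imprinted, averaged 0.338 against 0.0363 FPKM and was below the filter.

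**Figure D3:**
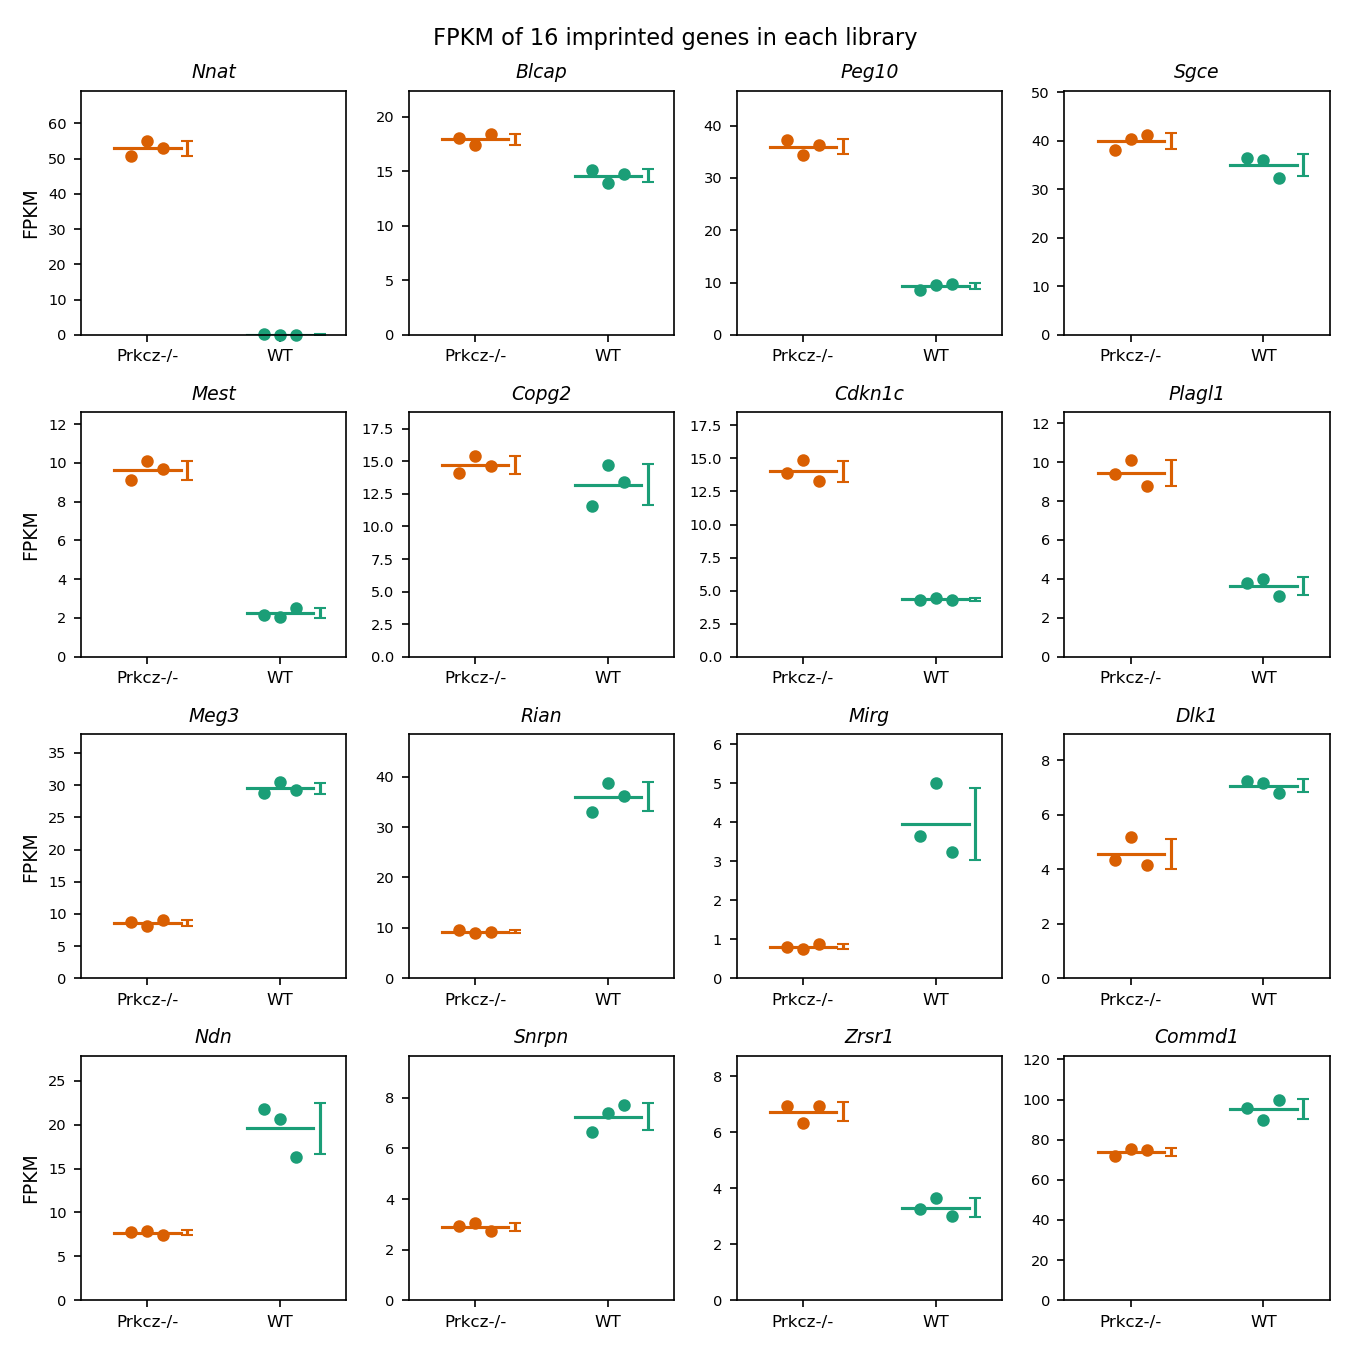
FPKM (y axis, from 0) of 16 imprinted genes in the 3 libraries labelled Prkcz-/- (left, orange) and the 3 labelled WT (right, green); points are libraries, lines means and bars SD. The groups overlap for Copg2 alone among these 16, and Meg3, Rian, Mirg and Dlk1 are lower in the libraries labelled Prkcz-/-.

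Peg10 rose strongly, and Sgce, which starts next to it on the other strand, by little. Peg10, a retrotransposon-derived gene needed for the placenta (chromosome 6, 4747306 to 4760517, plus strand), measured 37.3, 34.3 and 36.4 FPKM against 8.63, 9.45 and 9.82 FPKM in WT. That is 3.87-fold higher (log2 change 1.90, SE 0.0582, limma adjusted p = 7.84e-08). Sgce, the epsilon-sarcoglycan of muscle and brain membranes (4674350 to 4747207, minus strand), measured 38.0, 40.4 and 41.2 FPKM against 36.5, 36.1 and 32.4 FPKM in WT. The groups did not overlap, but its log2 change was 0.19 (SE 0.0554, limma adjusted p = 0.0173), and the call ended without replicate 2 or replicate 3 of the libraries labelled Prkcz-/- (adjusted p = 0.0535 and 0.0609). Ppp1r9a, the actin-binding scaffold neurabin, is read from the maternal copy in placenta and was higher at a low level. It measured 0.853, 0.952 and 1.04 FPKM against 0.320, 0.260 and 0.296 FPKM in WT (log2 change 0.87, SE 0.128). Ppp1r9a passed the filter through the libraries labelled Prkcz-/- alone and had to differ. Tfpi2, a secreted protease inhibitor, measured 0.0954, 0.0421 and a listed 0 against 0.302, 0.526 and 0.216 FPKM in WT, below the filter. Asb4, of a ubiquitin ligase family, measured 0.344 to 0.356 against 0.220 to 0.385 FPKM, with overlapping groups.

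Genes around the Peg10 domain moved both ways. Pdk4, a kinase that blocks pyruvate dehydrogenase and the nearest gene after Asb4, measured 10.4, 10.8 and 11.0 FPKM against 1.34, 2.23 and 1.65 FPKM in WT (log2 change 2.35, SE 0.135, limma adjusted p = 2.38e-06). Slc25a13, a mitochondrial aspartate carrier farther out, was lower at 6.41 against 15.4 FPKM (limma adjusted p = 1.63e-05). Casd1, a sialic acid O-acetyltransferase next to Sgce, measured 13.6 against 13.9 FPKM (limma adjusted p = 0.684).

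**Figure D4:**
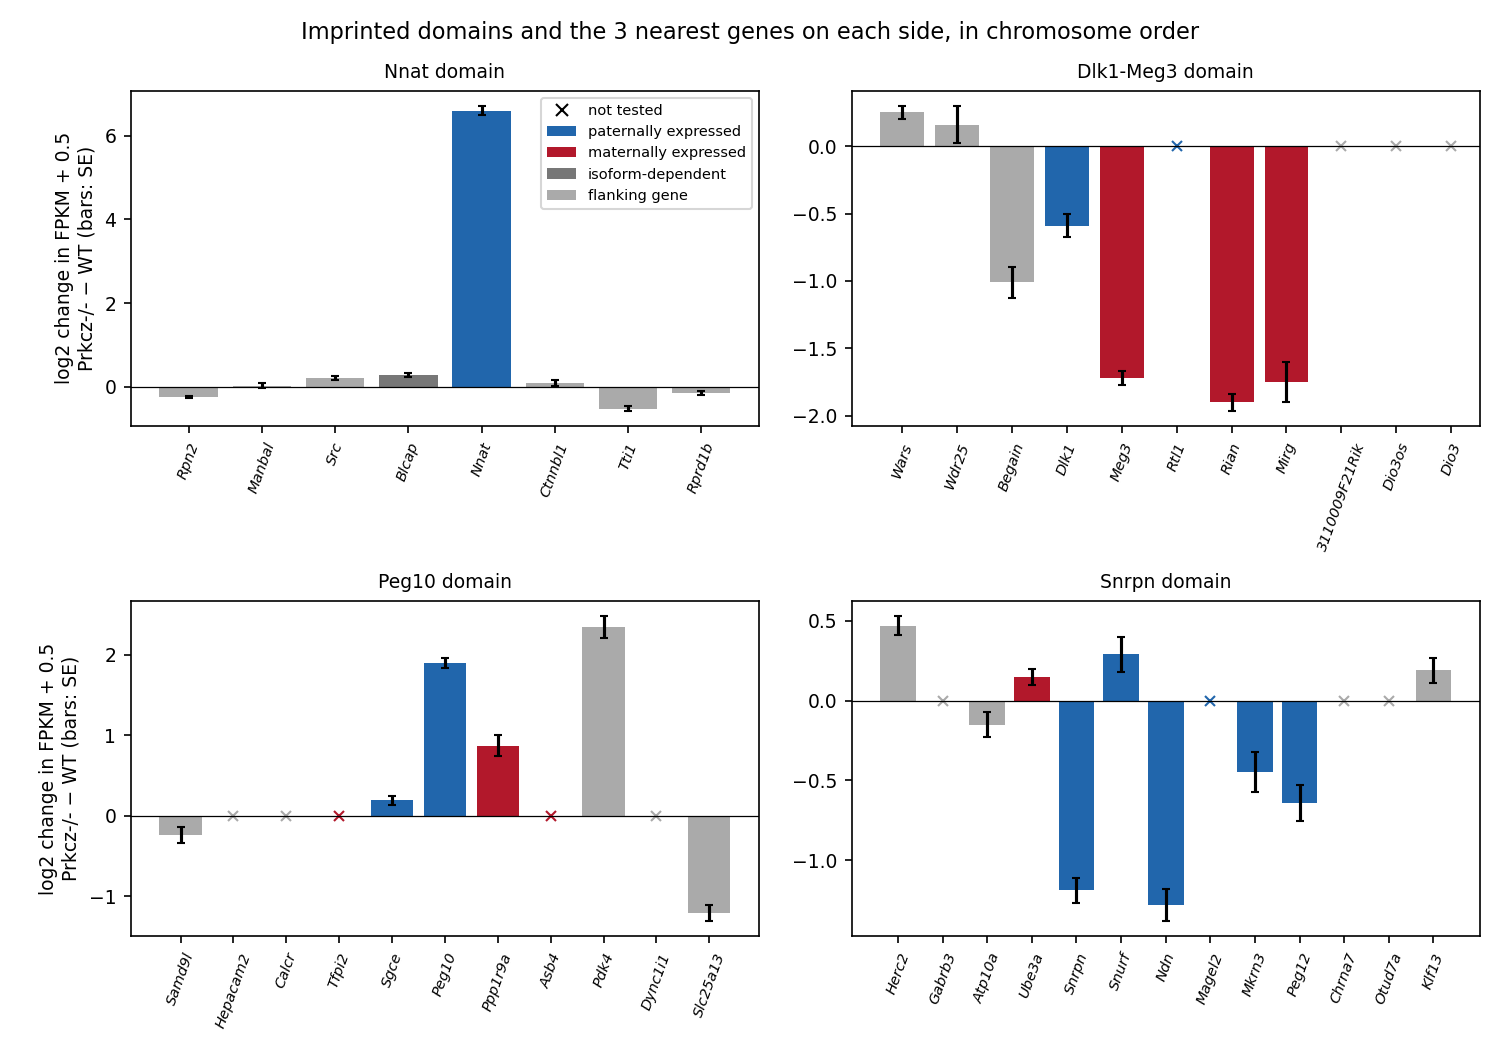
Log2 change (y axis, libraries labelled Prkcz-/- minus WT, bars are SE) of the members of the Nnat, Dlk1-Meg3, Peg10 and Snrpn domains and the 3 nearest table genes outside on each side (grey), in chromosome order; crosses mark genes too low to be tested. The change of Nnat (6.60) is far above those of its neighbours, whereas Pdk4 (2.35) beside the Peg10 domain exceeds Peg10 (1.90).

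Mest and Plagl1, both read from the paternal copy, were higher as well. Mest, a hydrolase fold protein of embryonic mesoderm and growing fat tissue, measured 9.10, 10.1 and 9.68 FPKM against 2.17, 2.06 and 2.53 FPKM in WT. Its level was 4.27-fold higher (log2 change 1.88, SE 0.0836, limma adjusted p = 5.92e-07). Copg2, a coatomer subunit of Golgi vesicles whose end overlaps that of Mest by 912 bases on the other strand, measured 14.1, 15.5 and 14.6 FPKM against 11.6, 14.7 and 13.4 FPKM in WT. Its groups overlapped (log2 change 0.15, SE 0.0851, limma adjusted p = 0.140), although it passed without WT replicate 2 (0.0305) and with short RNA genes left out of the scaling (0.0361). Plagl1, or Zac1, a zinc finger factor known in mouse to bind and raise other imprinted genes, measured 9.41, 10.1 and 8.79 FPKM against 3.78, 3.98 and 3.10 FPKM in WT (log2 change 1.27, SE 0.0964, limma adjusted p = 1.09e-05). Its neighbours were mixed, with Sf3b5, a splicing subunit, at 99.1 against 105 FPKM (limma adjusted p = 0.412), and Phactr2, the third gene after it, at 6.46 against 3.31 FPKM (limma adjusted p = 1.73e-05).

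In the Kcnq1 domain a single member rose strongly. Cdkn1c, the cyclin-dependent kinase inhibitor p57 (chromosome 7, 143458339 to 143461050), measured 13.9, 14.9 and 13.3 FPKM against 4.29, 4.44 and 4.28 FPKM in WT (log2 change 1.58, SE 0.0593, limma adjusted p = 2.32e-07). The other 3 tested maternally expressed genes of the domain were lower by small amounts. Tssc4, a splicing-associated protein, measured 26.3 ± 1.78 against 32.6 ± 2.66 FPKM (SD, n = 3), with a limma adjusted p = 0.00520. Nap1l4, a histone chaperone, measured 59.2 ± 2.12 against 67.6 ± 2.41 FPKM (limma adjusted p = 0.00409). Osbpl5, a lipid transfer protein, measured 15.4 ± 1.39 against 18.4 ± 0.953 FPKM (limma adjusted p = 0.0145), a call that ended with short RNA genes left out of the scaling (0.0553). Kcnq1ot1, the noncoding RNA that silences the domain on the paternal copy, measured 0.213, 0.168 and 0.164 FPKM against 0.196, 0.244 and 0.253 FPKM in WT, overlapping and below the filter. Slc22a18 and Phlda2 stayed at or under 0.303 FPKM in every library. Cd81, a tetraspanin just outside, measured 174 against 169 FPKM (limma adjusted p = 0.354).

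The IGF2 growth axis showed low ligand and abundant receptors. Igf2, the fetal growth factor, measured 0.750, 0.804 and 0.763 FPKM in the libraries labelled Prkcz-/-, against 0.0646 FPKM in WT library 1 and a listed 0 in the other WT libraries. These values stand for roughly 61 to 74 reads against 5.8 reads in that WT library, and the mean over both groups (0.397 FPKM) was below the filter. With no filter its adjusted p was 1.77e-05 (limma). H19, the noncoding RNA beside it that is read from the maternal copy, measured 1.73, 1.71 and 1.58 FPKM against 1.08, 0.987 and 0.758 FPKM in WT (log2 change 0.60, SE 0.121, limma adjusted p = 0.00268). In both genes every library labelled Prkcz-/- lay above every WT library, at FPKM levels far under those of Igf2r and Grb10. Mrpl23, a mitochondrial ribosomal gene before H19, measured 8.03 against 7.34 FPKM (limma adjusted p = 0.408).

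Igf2r, which carries IGF2 to the lysosome, measured 49.99, 49.3 and 49.4 FPKM against 54.2, 63.0 and 56.1 FPKM in WT (log2 change -0.22, SE 0.0553, limma adjusted p = 0.00885). That call ended with short RNA genes left out of the scaling (0.0723). Airn, its antisense RNA, measured 5.90, 5.24 and 7.77 FPKM against 5.08, 9.49 and 5.51 FPKM in WT, with WT library 2 the highest and the groups overlapping (log2 change -0.05, limma adjusted p = 0.866). Airn and Igf2r overlap over 28354 bases, and how strand was counted is not given in the sources used here, so Airn values are uncertain. Grb10, an adaptor that dampens insulin and IGF receptors, measured 106, 103 and 104 FPKM against 91.3, 96.2 and 93.0 FPKM in WT (log2 change 0.16, SE 0.0330, limma adjusted p = 0.00291). Its neighbour Ddc, the enzyme that makes dopamine and serotonin, measured 0.213, 0.188 and 0.323 FPKM against 0.740, 1.03 and 0.611 FPKM in WT (log2 change -0.80, SE 0.169). Ddc passed the filter through WT alone and had to differ.

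Of 12 other genes of the axis, chosen with earlier results of these data known, 8 were tested, 6 were higher and 2 lower, with a median log2 change of 0.36. That is 100% called, against 68.7% of all genes tested, of which 31.5% were higher, and on a list of 8 chosen this way nothing is read from it. Igf1r, the receptor that signals for IGF2, was at 18.1 ± 0.576 against 9.75 ± 0.358 FPKM (SD, n = 3; limma adjusted p = 2.24e-06). Its docking proteins Irs1 and Irs2 were at 10.6 against 4.08 and at 9.36 against 4.20 FPKM (limma adjusted p = 1.44e-06 and 1.07e-05). Igf2bp2, which binds Igf2 mRNA, was lower, at 16.2 ± 1.14 against 35.3 ± 1.10 FPKM (limma adjusted p = 1.37e-06).

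Paternally expressed genes of the Snrpn domain, which is lost or silenced in Prader-Willi syndrome in humans, were mostly lower. Ndn, the MAGE family protein necdin (chromosome 7, 62346569 to 62350262), measured 7.78, 7.89 and 7.39 FPKM against 21.8, 20.6 and 16.3 FPKM in WT (log2 change -1.28, SE 0.101, limma adjusted p = 1.34e-05). Snrpn, a protein of the spliceosome, measured 2.95, 3.04 and 2.73 FPKM against 6.67, 7.40 and 7.72 FPKM in WT (log2 change -1.19, SE 0.0773, limma adjusted p = 4.76e-06). Peg12, a FRAT family protein, measured 3.04, 3.72 and 2.63 FPKM against 5.39, 5.10 and 4.88 FPKM in WT (log2 change -0.64, limma adjusted p = 0.00127). In these 3 genes the groups did not overlap.

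Mkrn3, a ubiquitin ligase that restrains puberty, measured 0.505, 0.492 and 0.387 FPKM against 0.794, 0.852 and 0.794 FPKM in WT (log2 change -0.45). Mkrn3 passed the filter through WT alone and had to differ. Magel2, another MAGE family gene, had a listed 0 throughout the libraries labelled Prkcz-/- and measured 0.0253, 0.0420 and 0.0126 FPKM in WT. Snurf, an upstream reading frame of the Snrpn transcript, went the other way at 1.601 ± 0.167 against 1.22 ± 0.0957 FPKM (SD, n = 3; limma adjusted p = 0.0440). These values stand for roughly 5.0 to 5.4 reads per library against 3.9 to 4.1 in WT. Snurf and Snrpn share their strand and position, so the division of reads between the 2 rows is uncertain, and the Snurf call ended without any 1 of 4 libraries (adjusted p = 0.0924 to 0.142) and with the replicate number as a block (0.0860). Ube3a, the maternally expressed ubiquitin ligase whose copy is chosen in neurons, measured 20.6, 18.9 and 20.2 FPKM against 17.0, 18.0 and 18.4 FPKM in WT (log2 change 0.15, SE 0.0505, limma adjusted p = 0.0257). Without any 1 of 3 libraries the Ube3a call ended, at adjusted p = 0.0759 to 0.0912. Snhg14, a noncoding RNA that overlaps Ube3a on the other strand, averaged 0.825 against 2.26 FPKM in WT.

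Zrsr1 rose and Commd1, which encloses it, fell. Zrsr1, a splicing factor related to U2AF that sits in an intron of Commd1, measured 6.94, 6.35 and 6.93 FPKM against 3.25, 3.67 and 3.02 FPKM in WT (log2 change 0.93, SE 0.0822, limma adjusted p = 2.66e-05). It is a retrotransposed copy of Zrsr2, and reads could be shared with it. Commd1, a regulator of copper and NF-kB, measured 71.8, 75.6 and 74.7 FPKM against 95.9, 89.8 and 99.7 FPKM in WT (log2 change -0.36, SE 0.0447, limma adjusted p = 1.87e-04). Herc3, a HECT ubiquitin ligase, measured 2.88, 3.05 and 2.94 FPKM against 6.12, 7.16 and 5.92 FPKM in WT (log2 change -0.99, SE 0.0836, limma adjusted p = 2.00e-05). Nap1l5, inside it, measured 0.331, 0.227 and 0.435 FPKM against 0.267, 0.184 and 0.233 FPKM in WT, overlapping and below the filter.

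Trappc9, a vesicle tethering subunit, was higher at 13.1, 14.0 and 14.1 FPKM against 8.86, 10.3 and 8.53 FPKM in WT (log2 change 0.55, SE 0.0758, limma adjusted p = 3.28e-04). Peg13, a paternally expressed noncoding RNA within Trappc9, measured 0.262, 0.219 and 0.175 FPKM against 2.18, 2.04 and 1.91 FPKM in WT (log2 change -1.82, SE 0.118). It passed the filter through WT alone and had to differ. Peg13 is annotated on the same strand as Trappc9, so reads could be shared. Gnas, the stimulatory G protein subunit and the most abundant member, measured 724, 740 and 715 FPKM against 805, 801 and 784 FPKM in WT (log2 change -0.13, SE 0.0320, limma adjusted p = 0.00645). Impact, which restrains the GCN2 stress kinase, measured 20.1, 20.1 and 20.0 FPKM against 21.6, 22.7 and 23.3 FPKM in WT (log2 change -0.16, limma adjusted p = 0.00885). Both of these small differences lost their call with short RNA genes left out of the scaling (0.157 for Gnas and 0.185 for Impact). Sfmbt2, a Polycomb-related protein of the placenta, measured 0.348, 0.282 and 0.307 FPKM against 0.474, 0.521 and 0.570 FPKM in WT, just under the filter. Peg3, a zinc finger protein of the placenta and brain, measured 0.252, 0.154 and 0.203 FPKM against 0.193, 0.272 and 0.237 FPKM in WT, with overlapping groups. In all, 11 members with a row were too low to be tested, with values of 0 to 0.804 FPKM.

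Within a library, the log2 ratio of a paternally to a maternally expressed gene of the same domain was higher in some domains and lower in others. With both genes tested, 14 such pairs in 7 domains can be formed, some of which share a gene. From plain FPKM values, the ratio was higher in every library labelled Prkcz-/- than in every WT library in 6 pairs, lower in 6 and overlapping in 2. The log2 ratio of Mest to Copg2 was -0.63, -0.62 and -0.60 against -2.41, -2.84 and -2.40 in WT, a difference of 1.94. That of Dlk1 to Meg3 was -1.01, -0.65 and -1.12 against -1.99, -2.09 and -2.11 in WT, a difference of 1.14, with both genes lower and Meg3 by more. In the Snrpn domain the direction was the opposite, except for Snurf to Ube3a, which was higher with a difference of 0.23. The ratio of Snrpn to Ube3a was -2.81, -2.64 and -2.88 against -1.35, -1.28 and -1.26 in WT, a difference of -1.48, and Ndn to Ube3a differed by -1.50. Ddc to Grb10 differed by -1.89 and Sgce to Ppp1r9a by -1.51. Ddc and Mkrn3 passed the filter through WT alone, and Ppp1r9a through the libraries labelled Prkcz-/- alone. That selection lowers the difference for Ddc to Grb10, Mkrn3 to Ube3a, and Sgce or Peg10 to Ppp1r9a. Nothing is read from the direction of these pairs. Peg10 to Ppp1r9a overlapped between the groups, with a difference of 0.26, as did Airn to Igf2r (0.17).

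For 5 of these pairs an exact two-sided permutation test was run on log2(FPKM + 0.5), and the other pairs and the plain ratios were added after seeing the data and have no test. The exact test gave p = 0.1, the smallest that 3 against 3 allow, for Mest and Copg2, Dlk1 and Meg3, Zrsr1 and Commd1 (a difference of 1.29) and Peg10 and Ppp1r9a, and p = 0.5 for Airn and Igf2r (adjusted over 5 pairs, 0.125 and 0.5). The separation of Peg10 and Ppp1r9a on that scale (1.03) rests on the added 0.5 FPKM, given the low level of Ppp1r9a. Ppp1r9a averaged 0.947 FPKM in the libraries labelled Prkcz-/- and 0.292 FPKM in WT, and passed the filter through the former alone.

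**Figure D5:**
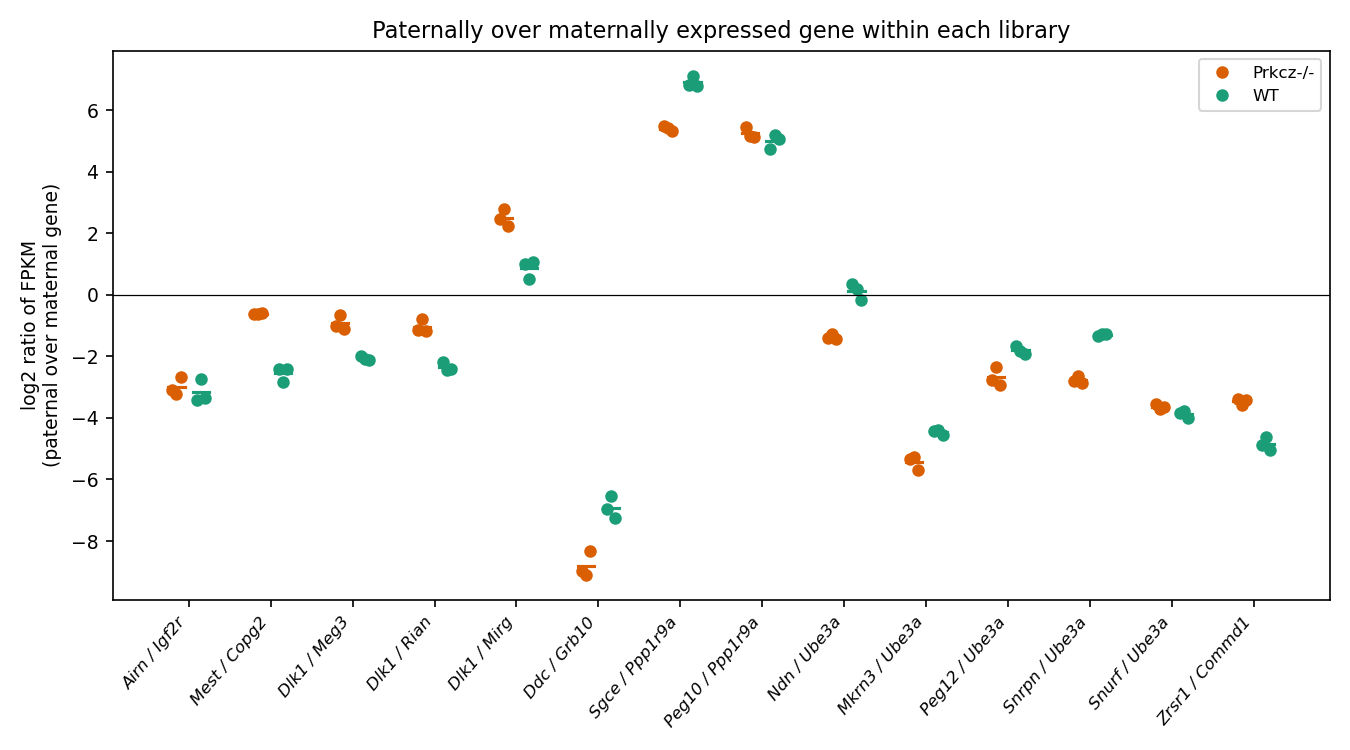
Log2 ratio of plain FPKM of a paternally to a maternally expressed gene (y axis) in each library, with the libraries labelled Prkcz-/- left (orange) and WT right (green) for each of 14 pairs of 7 domains; lines are means. The ratio is higher in the libraries labelled Prkcz-/- for 6 pairs, among them Mest and Copg2 (1.94), lower for 6, among them Snrpn and Ube3a (-1.48), and overlapping for Airn and Igf2r and for Peg10 and Ppp1r9a.

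The 3 nearest genes of the table on each side of the 17 domains were taken as the surroundings, at any distance and whether imprinted or not. Cd81, Begain and Dhcr7 among them are also reported as imprinted in some tissue. Egfr lies 4714 kb from the Grb10 domain. Of 68 such genes tested, 15 were higher and 27 lower, with a median log2 change of 0.00, and 8 were called with a log2 change of 1 or more in either direction. These shares, 61.8% called and 11.8% with the larger change, lie near the 68.7% and 10.8% of all genes tested. Among domains with at least 2 tested members, all tested members were called in one direction in 3 of 9 (Nnat, Dlk1-Meg3 and Peg10), and 4 had members called both ways. These counts cover the listed members only. How often neighbouring genes in general share a direction was not computed, so nothing is read from them. The count for Peg10 needs the call of Sgce, and that of Snrpn as mixed needs those of Snurf or Ube3a, which end without single libraries as given above. The Nnat and Grb10 domains reach 2 tested members only through Nnat and Ddc. These genes passed the filter through their high group alone and had to differ, as did Ppp1r9a (Peg10 domain) and Mkrn3 (Snrpn domain). Around Gnas, 5 of 5 tested flanking genes were lower, Nelfcd at 24.8 against 36.8 FPKM and Npepl1 at 19.3 against 24.9 FPKM (limma adjusted p = 3.70e-05 and 0.00117). Abcg2, a drug efflux pump before Herc3, was lower at 11.7 against 30.6 FPKM, and Fam13a after it measured 0.969 against 0.668 FPKM (limma adjusted p = 2.20e-07 and 0.167).

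The share of called genes among the factors that keep or copy imprints was near that of all genes. Of 24 listed, 21 were tested, 3 were higher, 11 lower and 7 not past the threshold, with a median log2 change of -0.15. That is 66.7% called, against 68.7% of all genes tested (31.5% higher and 37.2% lower). The higher count was 6 with short RNA genes left out of the scaling and 5 without WT replicate 2. Zfp57, the zinc finger protein that guards methylated control regions, measured 8.08, 6.45 and 7.83 FPKM against 18.1, 15.7 and 19.1 FPKM in WT (log2 change -1.19, limma adjusted p = 2.00e-05). Its partner Trim28 was at 126 against 146 FPKM (limma adjusted p = 4.99e-04) and the related Zfp445 at 18.2 against 17.9 FPKM (0.770). Uhrf1 was at 43.4 ± 0.859 against 66.4 ± 2.32 FPKM and Dnmt1 at 69.8 ± 1.48 against 86.7 ± 1.27 FPKM (SD, n = 3; limma adjusted p = 3.74e-06 and 5.97e-05). Dnmt3a, a de novo methyltransferase, was higher at 5.79 ± 0.265 against 3.66 ± 0.0586 FPKM (limma adjusted p = 8.22e-05), and Tet1, which oxidises methylcytosine, measured 1.01 against 0.166 FPKM. Tet1 passed the filter through its high group alone and so had to differ. DNA methylation itself was not measured in these libraries.

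Among 35 other genes reported as imprinted in some mouse tissue, mostly placenta or brain, 17 were tested, 3 were higher and 11 lower, with a median log2 change of -0.39. That is 82.4% called, against 68.7% of all genes tested. Of the 17, Ampd3, Ano1, Peg13 and Gatm passed the filter through their high group alone and had to differ, and without these 4 genes 1 of 13 was higher and 9 lower. Of all 11462 genes that passed in each group, 3422 were higher and 4357 lower (67.9% called). This list too was chosen with earlier results of these data known, and nothing is read from its counts. Ampd3, an AMP deaminase, measured 5.31, 5.67 and 5.28 FPKM against 0.493, 0.397 and 0.344 FPKM in WT (log2 change 2.70, SE 0.0992). Dcn, the proteoglycan decorin that is also a fibroblast marker, measured 5.01, 6.35 and 4.67 FPKM against 48.7, 51.7 and 46.8 FPKM in WT (log2 change -3.09, SE 0.101, limma adjusted p = 1.11e-07). Htr2a, a serotonin receptor, measured 0.832, 0.417 and 0.593 FPKM against 5.34, 5.30 and 5.34 FPKM in WT (log2 change -2.40, limma adjusted p = 2.38e-06). Rasgrf1 and Nespas averaged 0.459 and 0.278 FPKM in the libraries labelled Prkcz-/- and were listed at 0 in each WT library; they were chosen for mention after their values were seen.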

How the data were processed

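Polyadenylated RNA of 6 libraries, 3 labelled Prkcz-/- and 3 labelled WT, was sequenced from a single end with a directional kit, per the labels' protocols. The authors deposited FPKM values per gene in 1 table. STAR and DESeq2 and the build mm10 are named in the submitters' processing notes, and the gene lengths, counting program and strand setting behind the table are not stated there.

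The 12130 of 16874 genes whose mean reached 0.5 FPKM were compared on log2(FPKM + 0.5) with limma 3.58.1 in R 4.3.3 (eBayes with a variance trend), two-sided, with Benjamini-Hochberg adjustment over all genes tested and a threshold of 0.05. The log2 scale understates changes of low genes. On values simulated for these 12130 genes, 182 of 200 changed genes were recovered with 8 false calls. That simulation changed far fewer genes than were called here, none of them low in WT, and by larger folds than many members showed. It gives no error rate for the calls reported here. Within-library ratios used an exact permutation test. Positions are from GENCODE M21 on GRCm38, and sequences from RefSeq on GRCm38.p6. All members with a mean of at least 0.5 FPKM are named with values, of other gene lists up to 4 genes with the smallest p, and genes next to a domain. The rule also took the 2 most abundant markers of each other cell type, of which the neural, muscle, immune and mesothelial ones are named. Other genes named were chosen after their values were seen. The members and lists were chosen with earlier results of these data known. The plain ratios and all pairs beyond 5 were added after seeing the data. Alternatives changed the added constant, the filter, the scaling, the variance model and the libraries.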

Additional observations from a re-analysis of the deposited data

How the results depend on the processing

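Of the 31 imprinted genes called, 26 were tested under every alternative and 20 of these kept their direction and call in all. H19, Ddc, Ppp1r9a and Mkrn3, which some filters or left-out libraries removed from testing, kept theirs wherever they were tested. Igf2r, Osbpl5, Impact and Gnas lost the call with short RNA genes left out of the scaling, and Sgce, Snurf and Ube3a without single libraries. Airn, which had no call, changed sign to 0.03 with short RNA genes left out, and leaving out 1 library moved it between -0.20 and 0.21 with adjusted p over 0.05. Leaving out 1 library gave 11 to 15 higher and 16 to 17 lower imprinted genes, and 2 to 5 higher imprint maintenance factors. That last count was 6 with short RNA genes left out. Of the other imprinted genes, 6 were higher with no filter and 7 lower with a filter at a mean of 2 FPKM, where the genes tested differ in number. Same-numbered libraries of the 2 groups did not deviate together (Pearson's r of 0.00827 to 0.0599 across genes) and share only a number, and with the replicate block 3718 genes were higher and 4375 lower, against 3825 and 4511 without it. The log2 ratio of Peg10 to Ppp1r9a differed by 0.53 with 0.1 FPKM added and by 0.26 with none, against 1.03. For that ratio the added constant is the cause by construction, and the cause of the other changes was not tested. The 11 members under the filter averaged less than 0.5 FPKM, and not all for lack of reads. Kcnq1ot1, a long gene, had about 240 to 370 reads per library. A listed 0 among the 11 does not show absence.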
